A study of Saccharomyces cerevisiae with 6 samples.

Results

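The genes described here encode subunits of the yeast proteasome, together with RPN4, the gene for their shared transcription factor. They were chosen by name, as the probe sets that the platform annotation pairs with 33 listed symbols. All 33 were found, each with 1 probe set, among the 5449 yeast genes measured. No filter on low values was applied, and the lowest value of any of the 33 on any array was 9.72. They fall into 14 genes of the core particle, 18 of the regulatory particle and RPN4. Expression was measured on 6 one-colour Affymetrix arrays of Saccharomyces cerevisiae, 3 labelled as a gpm1 mutant and 3 labelled wild type (WT). GPM1 encodes the glycolytic enzyme phosphoglycerate mutase, and all 6 cultures were grown in batch on ethanol and glycerol. The labels give no strain background and no construction of the mutant allele. They also leave unsaid whether replicates were grown as separate cultures, so the p-values speak only to the spread among these 6 arrays, part of which may be technical, and 3 arrays per group limit the precision.

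The proteasome is the protease that degrades proteins marked with ubiquitin. Its core particle is a barrel of stacked rings, in which alpha subunits form the outer rings and the gate, and beta subunits form the inner rings that hold the proteolytic sites. The regulatory particle caps the barrel. Its base contains a ring of ATPases that unfold substrates, and its lid removes ubiquitin chains. In yeast the transcription factor Rpn4 activates most proteasome genes and is itself a short-lived substrate of the proteasome, which closes a feedback loop.

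Values are given on the log2 scale of the deposited table, whose base was inferred from its range, and differences are labelled gpm1 minus labelled WT. The gene that the labels name as mutated ran against them. GPM1 (YKL152C) stood at 12.51, 12.48 and 11.82 on the arrays labelled gpm1, against 5.16, 5.12 and 5.17 on the arrays labelled WT, where the 95th percentile of background probe sets was 6.10. Every direction below is that of the labelled groups and not of the genotype. The arrays labelled gpm1 also differed among themselves: the median SD over all genes was 0.248 there and 0.0484 among the arrays labelled WT. The poly-A control transcripts averaged 7.14, 6.67 and 6.21 on labelled gpm1 replicates 1, 2 and 3, against 5.92, 6.22 and 6.22 on the arrays labelled WT.

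No proteasome gene differed between the labelled groups past an adjusted p of 0.05. In limma with Benjamini-Hochberg adjustment over all 5449 genes, 0 of the 33 were called, where 0.807% of all genes were (0.0184% higher and 0.789% lower), and 0 of the 33 had an unadjusted p under 0.05, where 22.4% of all genes did. The smallest adjusted p among them was 0.264. Of the 33 differences, 24 were above 0 and 9 below, and their median was 0.11 beside 0.02 over all genes. They ran between -0.25 for PUP3 and 0.39 for RPT4. All 33 had a 95% limma interval, not adjusted for the number of genes, that stayed inside a 2-fold difference in either direction, as did 81.4% of all genes. The limma model gives each gene a variance shared by both labelled groups. The spread was unequal, with a median SD over the 33 of 0.26 for labelled gpm1 and 0.048 for labelled WT. Intervals with a separate variance per group were not computed, so the 2-fold bound holds only under the shared variance. The missed threshold does not show that the groups were alike, and the widest interval, that of RPT4, reached 0.86.

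**Figure D1:**
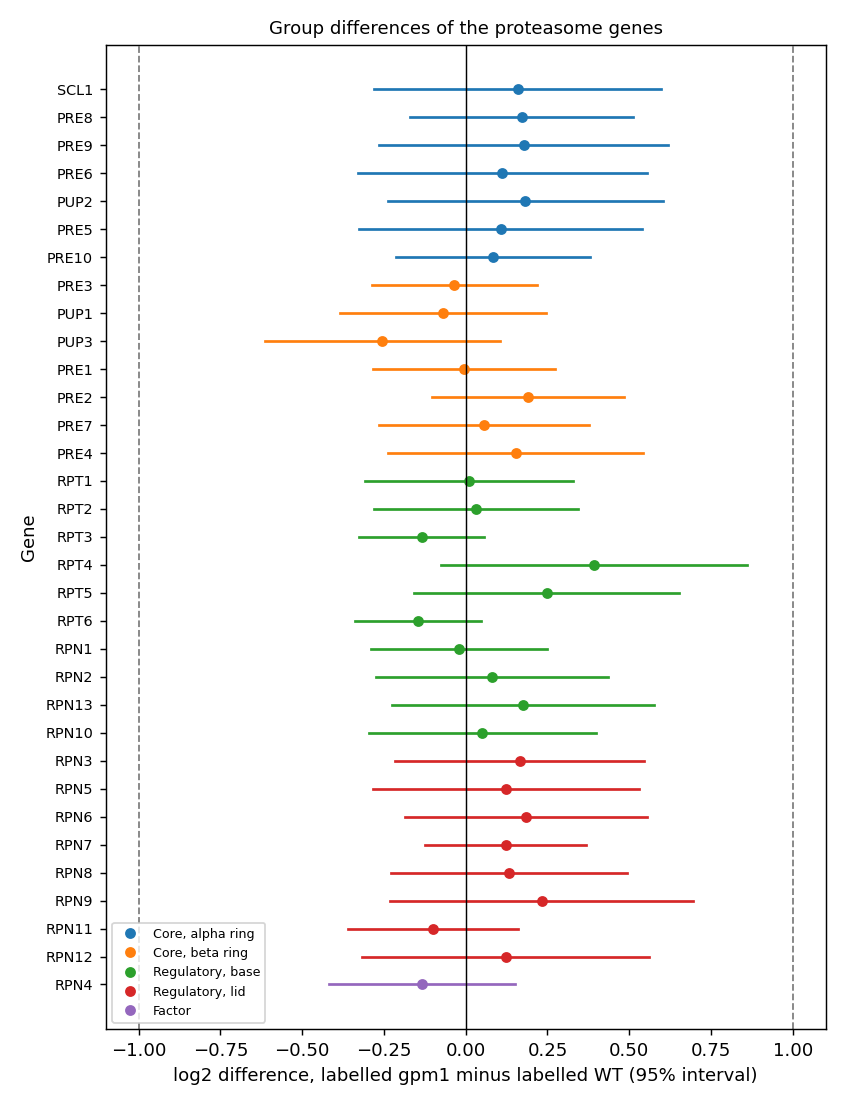
Log2 difference (labelled gpm1 minus labelled WT, horizontal axis) of each of the 33 genes with its 95% limma interval, coloured by subcomplex. Dashed lines mark a 2-fold difference. Every interval crosses 0 and none reaches a dashed line, under a variance shared by both labelled groups.

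The subunit genes took different positions on the 3 arrays labelled gpm1, mostly above the arrays labelled WT on replicate 1 and mostly below them on replicate 3. On labelled gpm1 replicate 1 the 32 subunit genes had a median of 0.41 above the WT mean, on replicate 2 of 0.06, and on replicate 3 of -0.11. The medians over all genes on these arrays were 0.05, -0.006 and 0.02. On labelled gpm1 replicate 1, 28 of the 33 genes lay above all 3 arrays labelled WT, where 50.3% of all genes did, and 4 lay below them, where 41.5% did. On labelled gpm1 replicate 3, 29 of the 33 lay below all 3 arrays labelled WT, where 34.5% of all genes did, and 0 lay above them, where 42.5% did. Labelled gpm1 replicate 2 was divided, with 15 above (44.3% of all genes) and 10 below (45.3% of all genes).

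The order of the 3 arrays was therefore shared. In 27 of the 33 genes labelled gpm1 replicate 1 was the highest of its group, replicate 2 came next and replicate 3 was the lowest, an order found in 30.5% of all genes. The poly-A controls have the same order, and their part in it was not tested. The subunit genes were also close to one another within an array: the interquartile range of their differences was 0.30, 0.19 and 0.09 on labelled gpm1 replicates 1, 2 and 3, beside 0.74, 0.53 and 0.22 over all genes. None of the 33 was 2-fold from the WT mean on any array labelled gpm1, a limit that 11.5%, 6.97% and 0.954% of all genes reached on replicates 1, 2 and 3. The 33 genes had no value under 9.72, while values over all genes went down to 4.89. Genes of like level were not compared separately, so both contrasts with all genes may partly reflect signal level, which was not tested.

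**Figure D2:**
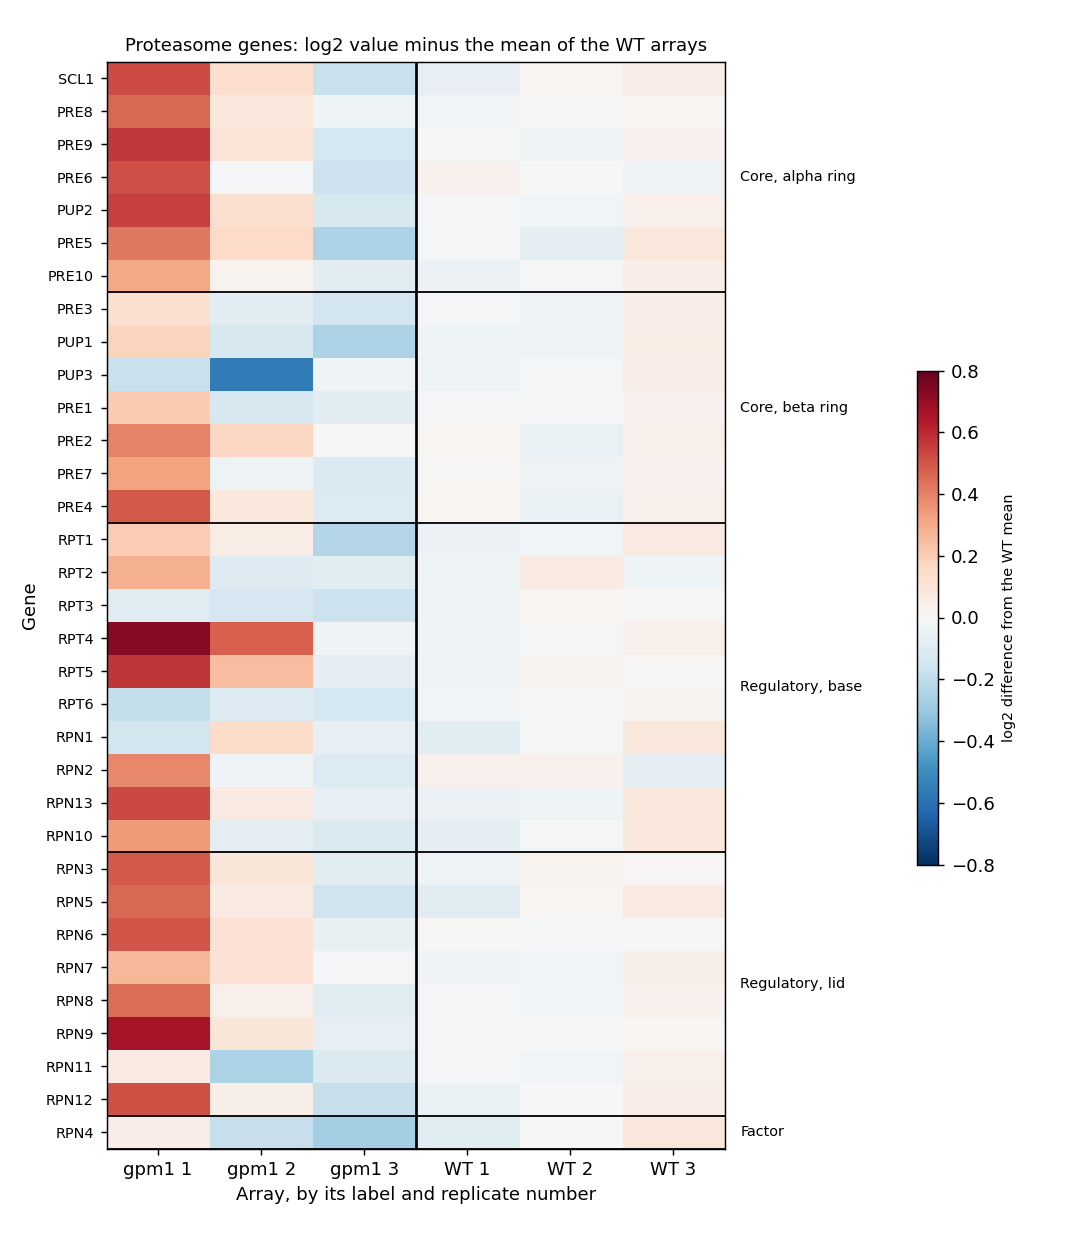
Log2 value minus the mean of the arrays labelled WT (colour) for each of the 33 genes (rows, by subcomplex) on each array (columns). The column of labelled gpm1 replicate 1 is red for 29 genes, and that of replicate 3 is pale blue for 32, PRE2 being the exception at 0.0052.

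In the core particle the genes of the alpha ring were close to one another. All 7 (SCL1, PRE8, PRE9, PRE6, PUP2, PRE5 and PRE10) lay above the 3 arrays labelled WT on labelled gpm1 replicate 1, at 0.31 to 0.57 from the WT mean, and all 7 lay below them on replicate 3, at -0.25 to -0.03. PRE9, for the only alpha subunit that yeast can live without, stood at 10.85, 10.39 and 10.15 on the arrays labelled gpm1, against 10.29, 10.25 and 10.32 on those labelled WT. The arrays labelled gpm1 thus lay on both sides of the WT range. PUP2 stood at 11.04, 10.63 and 10.37, against 10.48, 10.47 and 10.54, with the same overlap. Its difference was 0.18 (SE 0.17, limma adjusted p = 0.520), which became 0.0015 without labelled gpm1 replicate 1 and 0.34 without replicate 3. With all arrays the 7 differences lay between 0.08 and 0.18.

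The genes of the beta ring were less alike. The 3 proteolytic subunits are encoded by PRE3 (caspase-like activity), PUP1 (trypsin-like activity) and PRE2 (chymotrypsin-like activity). PRE2 (YPR103W) stood at 11.23, 10.99 and 10.83 on the arrays labelled gpm1, against 10.84, 10.77 and 10.86 on those labelled WT. Labelled gpm1 replicates 1 and 2 lay above the WT range and replicate 3 inside it, for a difference of 0.19 (SE 0.12, limma adjusted p = 0.353). PUP1 stood at 10.71, 10.40 and 10.28, against 10.50, 10.51 and 10.59, so that only labelled gpm1 replicate 1 lay above the WT range and the others below it. PRE3 stood at 11.10, 10.89 and 10.82, against 10.96, 10.93 and 11.03, in the same arrangement. The differences were -0.07 for PUP1 and -0.04 for PRE3 (limma adjusted p = 0.752 and 0.845).

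Among the beta subunits without a proteolytic site, PUP3 (YER094C) had a different pattern. It stood at 10.70, 10.32 and 10.85 on the arrays labelled gpm1, against 10.84, 10.86 and 10.93 on those labelled WT. It was the 1 core gene below the WT range on labelled gpm1 replicate 1. Its lowest value was on replicate 2, as for PRE1, RPT2 and RPN11. There it lay at -0.56 from the WT mean, where the subunit median was 0.06. The difference was -0.25 (SE 0.15, limma adjusted p = 0.323), and it was -0.10 without labelled gpm1 replicate 2 and -0.37 without replicate 3. PRE4 and PRE7, for subunits of the same ring, had differences of 0.15 and 0.06, and PRE1 had -0.0039. PRE4 followed the alpha genes, at 0.49, 0.08 and -0.11 from the WT mean on labelled gpm1 replicates 1, 2 and 3.

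In the regulatory particle the spread among genes was widest in the base, whose 6 ATPase genes RPT1 to RPT6 encode a single ring. RPT4 (YOR259C) stood at 11.12, 10.86 and 10.36 on the arrays labelled gpm1, against 10.36, 10.38 and 10.43 on those labelled WT. RPT5 (YOR117W) stood at 10.54, 10.22 and 9.90, against 9.94, 9.99 and 9.98. For both genes labelled gpm1 replicates 1 and 2 lay above every array labelled WT, while replicate 3 did not. The differences were 0.39 for RPT4 (SE 0.19, limma adjusted p = 0.264) and 0.25 for RPT5 (SE 0.17, limma adjusted p = 0.379).

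RPT3 and RPT6 lay on the other side. RPT3 (YDR394W) stood at 10.25, 10.22 and 10.18 on the arrays labelled gpm1, against 10.32, 10.36 and 10.36 on those labelled WT. RPT6 (YGL048C) stood at 10.52, 10.61 and 10.57, against 10.69, 10.71 and 10.74. These were the 2 of the 33 genes whose labelled groups did not overlap, where 34.6% of all genes were separated. In both gpm1 lay below, where 15.4% of all genes did. In the other direction 0 of the 33 were separated, against 19.2% of all genes. The differences were small and similar on all 3 arrays, with means of -0.13 for RPT3 and -0.15 for RPT6 (SE 0.08 each, limma adjusted p = 0.325 and 0.297). RPT1 and RPT2 were between these pairs, at 0.01 and 0.03. Whether the ATPase genes differed from one another in their response was not tested.

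**Figure D3:**
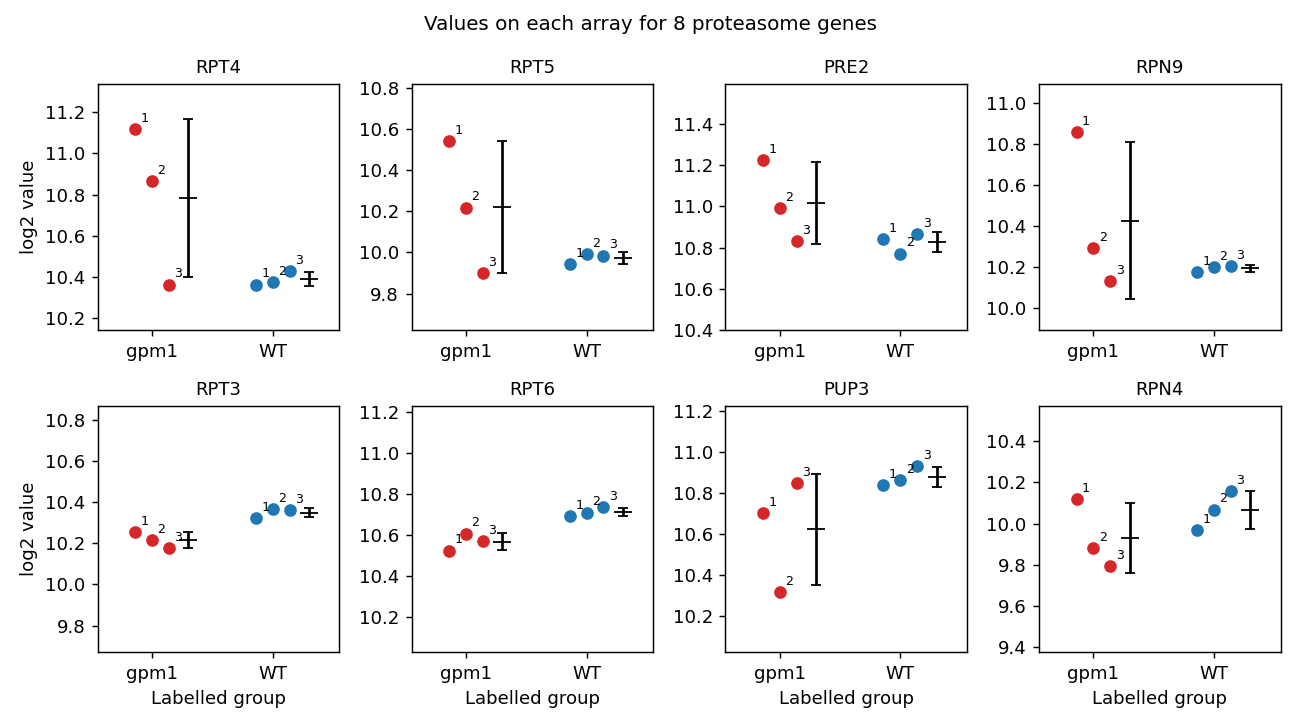
Log2 values of 8 genes on each array labelled gpm1 (red) and WT (blue), with replicate numbers and, beside each group, its mean and SD (n = 3). Each panel spans the same range. In RPT4, RPT5, PRE2 and RPN9 labelled gpm1 replicate 1 is the highest array, in RPT3 and RPT6 the groups are apart, and in PUP3 labelled gpm1 replicate 2 is the lowest.

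The other base genes encode scaffolds and ubiquitin receptors. RPN1, a scaffold that also binds ubiquitin-like domains, departed from the shared order. It stood at -0.15 from the WT mean on labelled gpm1 replicate 1 and at 0.15 on replicate 2, and the group difference was -0.02 (limma adjusted p = 0.911). RPN2, for the other large scaffold, stood at 11.07, 10.66 and 10.58 on the arrays labelled gpm1, against 10.73, 10.72 and 10.62 on those labelled WT, which put replicate 1 above the WT range and replicate 3 below it. The receptor genes RPN13 and RPN10 lay above the WT range on labelled gpm1 replicate 1, at 0.53 and 0.34 from the WT mean, and below it on replicate 3. Their differences were 0.18 and 0.05 (limma adjusted p = 0.517 and 0.837).

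The lid genes resembled the alpha ring, with 1 exception. All 8 lay above the WT range on labelled gpm1 replicate 1, and for 7 of them (RPN3, RPN5, RPN6, RPN7, RPN8, RPN9 and RPN12, structural subunits of the lid) the difference between the groups was above 0, between 0.12 and 0.23. Of these 7 RPN9 had the largest, at 10.86, 10.29 and 10.13 on the arrays labelled gpm1, against 10.18, 10.20 and 10.21 on those labelled WT. Most of it came from labelled gpm1 replicate 1, and the difference was 0.23 (SE 0.19, limma adjusted p = 0.459). The exception was RPN11, for the deubiquitinase that cuts ubiquitin chains from substrates before they are degraded. It stood at 10.04, 9.72 and 9.86, against 9.96, 9.95 and 10.01, so that labelled gpm1 replicates 2 and 3 lay below the WT range, and its difference was -0.10 (SE 0.11, limma adjusted p = 0.561).

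The core and the regulatory particle had nearly the same medians on each array. The core median was 0.41, 0.05 and -0.12 from the WT mean on labelled gpm1 replicates 1, 2 and 3, and the regulatory median was 0.41, 0.06 and -0.09. Core minus regulatory was -0.0026, -0.0088 and -0.03 on those arrays, against 0.01, -0.02 and 0.0053 on the arrays labelled WT. Alpha and beta, and lid and base, were farther apart on replicates 1 and 2 than the particles were. The alpha median exceeded the beta median by 0.31 and 0.19 on labelled gpm1 replicates 1 and 2, while alpha minus beta was -0.03 on replicate 3. The lid median exceeded the base median by 0.16, 0.07 and 0.01. The same differences lay between -0.0031 and 0.03 on the arrays labelled WT. These medians are descriptions of named genes and carry no test.

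**Figure D4:**
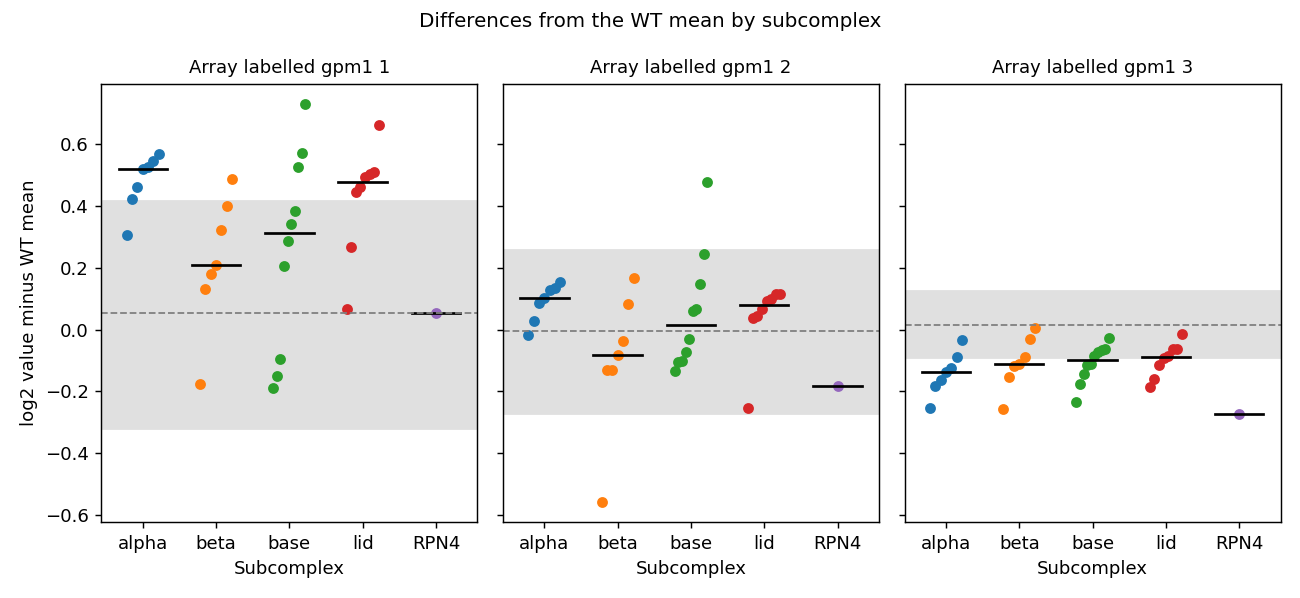
Log2 value minus WT mean (vertical axis) of each gene by subcomplex on the 3 arrays labelled gpm1; black bars are medians, the dashed line is the median of all genes and the grey band their middle quartiles. Alpha genes and, apart from RPN11, lid genes sit above most beta genes on replicates 1 and 2, and the subcomplexes lie close together on replicate 3.

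On each array labelled gpm1 the difference of RPN4 (YDL020C) lay below the median of the subunit genes. It stood at 10.12, 9.88 and 9.79 on the arrays labelled gpm1, against 9.97, 10.07 and 10.16 on those labelled WT. Labelled gpm1 replicate 1 lay inside the WT range and replicates 2 and 3 below it. The mean was 9.93 ± 0.17 in the group labelled gpm1 and 10.06 ± 0.09 in the group labelled WT (SD, n = 3 each), a difference of -0.13 (SE 0.12, 95% interval -0.42 to 0.15, limma adjusted p = 0.487). It was -0.23 without labelled gpm1 replicate 1 and -0.06 without replicate 3. The subunit median exceeded the RPN4 difference by 0.36, 0.25 and 0.16 on labelled gpm1 replicates 1, 2 and 3, against 0.07, -0.02 and -0.05 on the arrays labelled WT. On labelled gpm1 replicates 1 and 2 it lay within the range of the subunit genes. PUP3, RPT3, RPT6 and RPN1 were lower on replicate 1, and PUP3 and RPN11 on replicate 2. On labelled gpm1 replicate 3, RPN4 had the lowest difference of the 33, at -0.27. RPN4 shared the order of most subunit genes over the 3 arrays labelled gpm1. The RNA of a culture was measured in bulk, so fewer cells of a kind and less RNA per cell cannot be told apart.

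Leaving out labelled gpm1 replicate 3 moved the number of calls the most. The calls over all genes rose from 44 to 2240, while leaving out any other single array gave 11 to 60. The fit without it compares only labelled gpm1 replicates 1 and 2 with labelled WT. It drops the labelled gpm1 array with the fewest genes 2-fold from the WT mean, 0.954% beside 11.5% and 6.97% on replicates 1 and 2. Its adjusted p-values, here and below, carry that limit. Without labelled gpm1 replicate 3, limma called 41.1% of all genes but 2 of the 33 (6.06%), both higher (21.6% of all genes were called higher). These were RPT4 at 0.60 (SE 0.10, limma adjusted p = 0.0074) and RPT5 at 0.41 (SE 0.11, limma adjusted p = 0.037). Over all alternatives run, the adjusted p ranged from 0.0074 to 0.522 for RPT4 and from 0.037 to 0.626 for RPT5. Without labelled gpm1 replicate 1 their differences were 0.23 and 0.09. In the fit without replicate 3 the subunit median was 0.25. Without replicate 1 it was -0.04, and 0 of the 33 were called, where 1.1% of all genes were. The differences of RPT3 and RPT6 were the 2 of the 33 that neither changed sign nor moved by over 1.5 times when any 1 array was left out. They stayed between -0.15 and -0.11 for RPT3 and between -0.17 and -0.12 for RPT6.

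The genes that assemble, serve or regulate the proteasome were counted from 6 further lists of 33 genes in all, and 0 of these passed with all 6 arrays, where 0.807% of all genes did. An unadjusted p under 0.05 was found for 6 of them, where 22.4% of all genes had one. Without labelled gpm1 replicate 3, 13 of them (39.4%) were called, 6 higher and 7 lower (21.6% and 19.5% of all genes). Without labelled gpm1 replicate 1, 0 of them were called, where 1.1% of all genes were. In 9 of them the labelled groups did not overlap, all with gpm1 below, where 15.4% of all genes lay below and 19.2% above. From each list the 2 genes with the smallest p are named below, and any other is marked as named after its values were seen.

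Of 5 core assembly factors 0 were called in either fit. UMP1 encodes a chaperone that is enclosed in the maturing core and becomes its first substrate. It stood at 10.76, 10.09 and 9.72 on the arrays labelled gpm1, against 9.95, 9.92 and 9.94 on those labelled WT, above the WT range on replicates 1 and 2 and below it on replicate 3. Its difference was 0.25 (SE 0.25, limma adjusted p = 0.535). IRC25, for a chaperone of the alpha ring, had -0.10 (limma adjusted p = 0.605). Of 5 base assembly chaperones 0 were called in either fit, with TMA17 at -0.17 (limma adjusted p = 0.454) and NAS2 at -0.07 (limma adjusted p = 0.627).

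Of 7 genes listed as proteasome-associated, SEM1 among them, 4 were called lower and 0 higher without labelled gpm1 replicate 3. That fit called 19.5% of all genes lower. HUL5, for a ubiquitin ligase that extends chains on proteasome-bound substrates, stood at 7.54, 7.62 and 7.98 on the arrays labelled gpm1, against 8.11, 8.16 and 8.19 on those labelled WT. Its groups did not overlap, with labelled gpm1 below, as in 15.4% of all genes. Its difference with all arrays was -0.44 (SE 0.13, limma adjusted p = 0.196) and without replicate 3 it was -0.57 (limma adjusted p = 0.0033). FUB1 had -0.28 with all arrays (limma adjusted p = 0.202) and -0.33 without replicate 3 (limma adjusted p = 0.023). Without replicate 1 HUL5 and FUB1 had -0.35 and -0.21 (limma adjusted p = 0.213 and 0.198).

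The other called genes of that list, named after their values were seen, were those of the large proteins Blm10, an alternative cap of the core particle, and Ecm29, which tethers the core to the regulatory particle. BLM10 stood at 7.25, 8.15 and 8.62, against 8.82, 8.80 and 8.92, below the WT range on all 3 arrays labelled gpm1, as were 15.4% of all genes. ECM29 stood at 7.70, 7.71 and 8.46, against 8.42, 8.44 and 8.47, with replicate 3 inside the WT range. With all arrays their differences were -0.84 and -0.49 (limma adjusted p = 0.218 and 0.236), and without replicate 1 they were -0.46 and -0.36. Without replicate 3 they were -1.15 and -0.74 (limma adjusted p = 0.022 and 0.0015), while the regulatory median in that fit was 0.22.

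Of 9 genes for ubiquitin supply and shuttling, 5 were called higher and 0 lower without labelled gpm1 replicate 3, where 21.6% of all genes were called higher. By the smallest p with all arrays, the named genes were NPL4, for a cofactor of the unfolding ATPase Cdc48, at -0.24 (SE 0.10, limma adjusted p = 0.219), and UBA1, for the ubiquitin-activating enzyme, at -0.20 (SE 0.09, limma adjusted p = 0.247). The 5 called in the fit without replicate 3, named after their values were seen, were UFD1 at 0.63, DSK2 at 0.57, UBI4 at 0.46, SHP1 at 0.44 and RAD23 at 0.35. With all arrays their differences were 0.38, 0.36, 0.23, 0.27 and 0.20 in the same order, with limma adjusted p between 0.317 for DSK2 and 0.495 for UBI4, and without replicate 1 they were 0.17, 0.15, 0.05, 0.11 and 0.12. UFD1 encodes a partner of Npl4 on Cdc48, DSK2 and RAD23 encode shuttle receptors, and UBI4 encodes polyubiquitin. UFD1 stood at 9.31, 8.99 and 8.39 on the arrays labelled gpm1, against 8.48, 8.51 and 8.57 on those labelled WT, above the WT range on replicates 1 and 2 and below it on replicate 3.

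Rpn4 is ubiquitinated by the ligase Ubr2 with its cofactor Mub1 and the conjugating enzyme Rad6. UBR2 stood at 7.15, 6.77 and 7.44 on the arrays labelled gpm1, against 7.74, 7.62 and 7.64 on those labelled WT, and the groups did not overlap. MUB1 stood at 7.004, 6.84 and 7.71, against 7.93, 7.88 and 7.78, again without overlap. In both genes labelled gpm1 lay below, as in 15.4% of all genes. Their differences were -0.55 (SE 0.17, limma adjusted p = 0.196) and -0.68 (SE 0.23, limma adjusted p = 0.199), which did not pass with all arrays. Both were called lower without replicate 3, at -0.70 and -0.94 (limma adjusted p = 0.011 and 0.0017), where 19.5% of all genes were called lower. Without replicate 1 they were at -0.56 and -0.59 (limma adjusted p = 0.222 and 0.255). RAD6, named after its values were seen, was called higher without replicate 3, at 0.79 (limma adjusted p = 0.0058), where 21.6% of all genes were. Its difference was 0.52 with all arrays (limma adjusted p = 0.247) and 0.30 without replicate 1. It stood at 9.72, 9.39 and 8.74, against 8.70, 8.78 and 8.81.

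Of the 4 genes for regulators of RPN4 transcription, PDR1, for a factor of pleiotropic drug resistance, stood at 8.83, 8.69 and 8.90 on the arrays labelled gpm1, against 9.05, 9.02 and 9.01 on those labelled WT. Its groups did not overlap, with labelled gpm1 below, as in 15.4% of all genes. Its difference was -0.22 (SE 0.09, limma adjusted p = 0.223). Without replicate 3 it was the 1 gene of this list that was called (25%, beside 41.1% of all genes), at -0.27 (limma adjusted p = 0.037). Without replicate 1 PDR1 was at -0.23 (limma adjusted p = 0.228). YAP1, for a factor of the oxidative stress response, had -0.08 (limma adjusted p = 0.583).

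**Figure D5:**
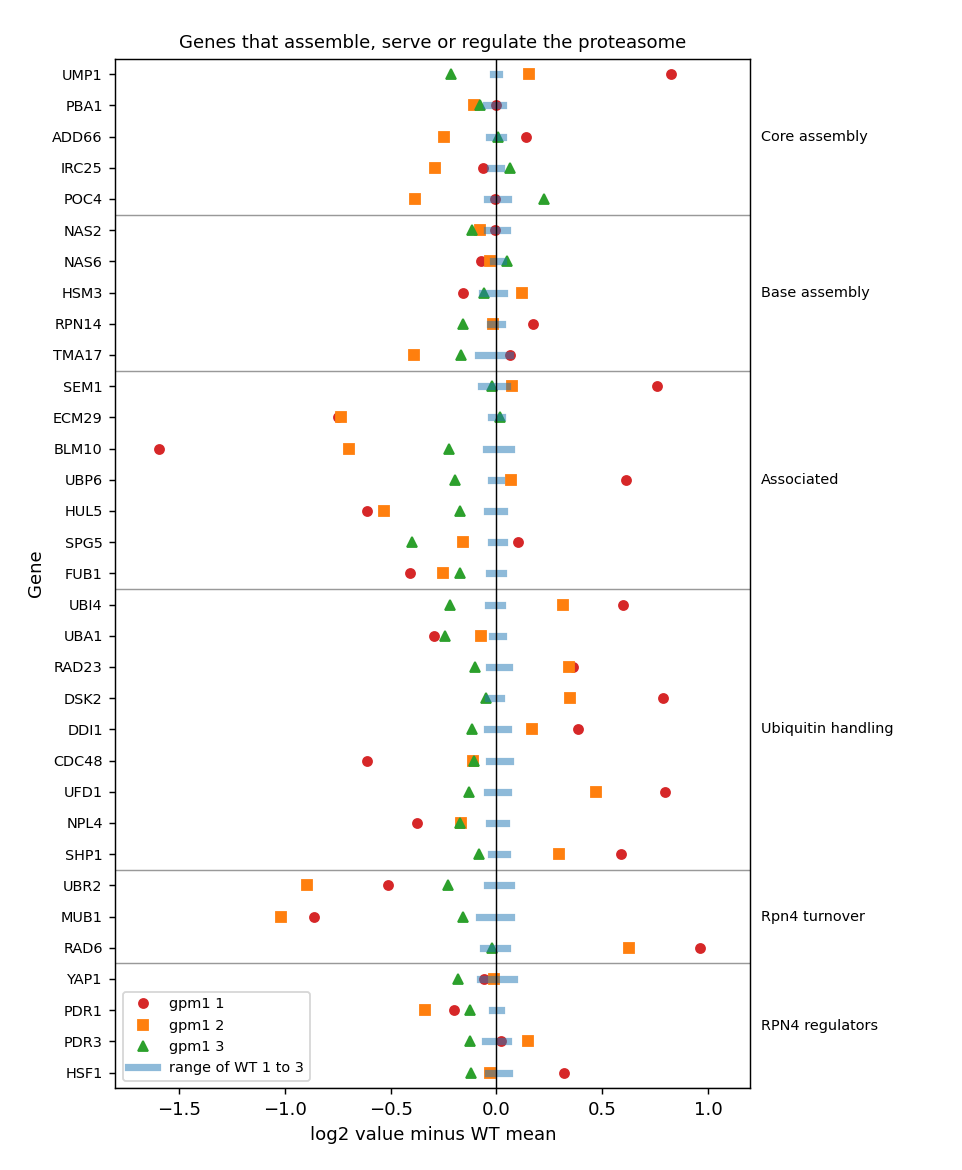
Log2 value minus WT mean (horizontal axis) of the 33 genes that assemble, serve or regulate the proteasome on labelled gpm1 replicates 1 (circles), 2 (squares) and 3 (triangles); blue bars span the 3 arrays labelled WT. BLM10 lies farthest to the left on replicate 1, and RAD6 farthest to the right.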

How the data were processed

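The deposited table held log2 values for 10928 probe sets, which the authors had summarised with PLIER, per the submitters' processing notes. For its version, any offset, the scaling and the log base, nothing is stated in the sources used here. The range, 4.88 to 13.12, pointed to base 2, and an offset would shrink differences of dim genes. Probe sets were named through the platform annotation and the S. cerevisiae R64 gene table, used for names only. Each gene was represented by its brightest probe set on average, which left 5449 genes. The other 1746 listed probe sets, whose gene IDs that table lacks, gave the background percentile. Labelled gpm1 was compared with labelled WT by limma 3.58.1 (lmFit, eBayes, two-sided) in R 4.3.3 on the whole table, with Benjamini-Hochberg adjustment and a threshold of 0.05.

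The members and lists were chosen with earlier results of these data known. All 33 members could be named, and of the 6 further lists the 2 genes with the smallest p each. ADC17 and TMA17 are names of 1 gene, which was counted once. Alternatives were quantile normalization, centring, an offset of 64, leaving out the dimmest 20% of genes, averaging probe sets, a robust prior with a trend, a block for the replicate number, and leaving out each array. Without probe or promoter sequences, cross-hybridisation between similar transcripts, such as UBI4 and the other ubiquitin genes, was not checked. Figures were made in Python 3.11.15 with matplotlib 3.10.9.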

Additional observations from a re-analysis of the deposited data

How the results depend on the processing

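With 0 of the 33 proteasome genes past the threshold in the reported fit, the count stayed at 0 under all 7 alternatives that kept the 6 arrays, the replicate block included, and ran from 0 to 2 when 1 array was left out. The 2 came without labelled gpm1 replicate 3, where the calls over all genes went to 2240, beside 44 with all arrays. Without labelled gpm1 replicate 1 the medians changed sign: leaving out 1 array gave -0.04 to 0.26 for the core particle and -0.03 to 0.22 for the regulatory particle, beside 0.11 and 0.12 as reported. Core minus regulatory was -0.01 as reported, 0.0073 after quantile normalization, and -0.020 to 0.045 when 1 array was left out. Single genes that changed sign with all 6 arrays were PRE1 at 0.0022 and RPT2 at -0.0013 after quantile normalization and RPT1 at -0.010 with arrays centred. When 1 array was left out, 18 of the 33 changed sign at least once, 15 of them without labelled gpm1 replicate 1. Their ranges in the alpha ring were -0.023 to 0.33 for SCL1, -0.017 to 0.33 for PRE9, -0.091 to 0.25 for PRE6, -0.050 to 0.29 for PRE5 and -0.030 to 0.17 for PRE10. In the beta ring they were -0.12 to 0.024 for PRE3, -0.19 to 0.024 for PUP1, -0.11 to 0.059 for PRE1, -0.077 to 0.14 for PRE7 and -0.014 to 0.28 for PRE4. In the base they were -0.086 to 0.13 for RPT1, -0.094 to 0.10 for RPT2, -0.11 to 0.042 for RPN1, -0.071 to 0.18 for RPN2 and -0.094 to 0.13 for RPN10. In the lid they were -0.046 to 0.26 for RPN5, -0.024 to 0.24 for RPN8 and -0.071 to 0.28 for RPN12. The other 15 kept their sign, but 13 of them moved by over 1.5 times when some array was left out. The exceptions were RPT3 and RPT6. The ranges were 0.026 to 0.27 for PRE8, 0.0015 to 0.34 for PUP2, -0.37 to -0.10 for PUP3, 0.086 to 0.28 for PRE2, 0.23 to 0.60 for RPT4, 0.086 to 0.41 for RPT5, 6.6e-05 to 0.30 for RPN13, 0.0012 to 0.29 for RPN3, 0.027 to 0.31 for RPN6, 0.050 to 0.19 for RPN7, 0.017 to 0.38 for RPN9, -0.19 to -0.025 for RPN11 and -0.23 to -0.064 for RPN4. The replicate numbers were not shown to pair the arrays: same-numbered arrays had correlations of 0.05, 0.02 and -0.13 between their deviations. Averaging probe sets changed none of the 33, which have 1 each.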
